A study of Mus musculus with 22 samples.

Results

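Wnt signalling genes were read across 22 spinal cord RNA libraries from 11 mice: the Wnt ligands, their Frizzled and Lrp5/Lrp6 receptors, R-spondins with their Lgr receptors, the secreted antagonists of the Sfrp and Dkk families, and the intracellular axins and TCF/LEF factors. Members are all rows whose gene symbol matches these families, 53 of the 24060 gene rows. They comprised 19 Wnt ligands, 12 receptors and co-receptors, 7 R-spondins and Lgr receptors, 9 antagonists and 6 intracellular members. All animals were young adult females carrying mGFAP-Cre-RiboTag, in which Cre under the mouse Gfap promoter places a hemagglutinin (HA) tag on ribosomes of any cell where it has been active. STAT3-CKO SCI animals (n = 3) also carried STAT3-LoxP, which targets the transcription factor Stat3 in those cells, and had a severe crush injury of the cord (SCI) at thoracic level 10. WT SCI animals (n = 4) had the same crush without the STAT3-LoxP allele, and uninjured animals (n = 4) carried mGFAP-Cre-RiboTag without a crush. The central 3 mm of the lesion was taken 14 days after injury. Each animal gave 2 libraries, one of RNA pulled down with the HA tag (HA IP) and one of the RNA left behind (flow-through). The tag reports every cell with past Gfap-Cre activity, which need not be an astrocyte, and flow-through holds RNA of all cells whose ribosomes were not pulled down.

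Wnt proteins are secreted ligands that bind a Frizzled receptor together with Lrp5 or Lrp6. In the canonical branch this stops a complex built on axin from marking beta-catenin for destruction, and beta-catenin then works with TCF/LEF factors on target genes such as Axin2, a scaffold that feeds back on the pathway. R-spondins act through Lgr4, Lgr5 and Lgr6 to keep Frizzled receptors at the cell surface, whereas Sfrp proteins bind Wnts, and Dkk1, Dkk2 and Dkk4 bind Lrp5 and Lrp6. In the central nervous system, Wnt7a and Wnt7b are known as glial and neural ligands that endothelial cells read during vessel growth and barrier formation.

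The libraries set limits on every value below. In each animal the HA IP count was at least as large as the flow-through count in nearly every row: it was below in 0 to 3 of 24060 rows, whereas against the flow-through of other animals it was below in 0.324% to 97.2% of the rows with flow-through counts. Among the Wnt genes, 332 pairs of HA IP and flow-through counts had flow-through reads. In 0 of them was HA IP the lower count, and in 37 the counts were identical. The ligand Wnt2, for example, had 36, 1 and 5 counts in the HA IP and again 36, 1 and 5 in the flow-through of uninjured animals 42 and 154 and STAT3-CKO SCI animal 270. The deposited HA IP counts thus appear to contain the flow-through counts, whose total was 10.7% to 22.1% of the HA IP total. Counts of HA IP calls are given on the counts as deposited and again after the flow-through counts of the same animal were subtracted, called here HA IP less flow-through; HA IP levels and differences of single genes are as deposited unless they are said to follow the subtraction. Depth differed widely. The 3 rows Rn45s, Lars2 and Mir6236 were set aside as holding ribosomal reads and are called ribosomal rows here, although only Rn45s is a ribosomal RNA gene by name. Reads outside them numbered 2496641 to 17348247 in STAT3-CKO SCI, 620265 to 2691494 in WT SCI and 26934866 to 51571785 in uninjured HA IP libraries. In flow-through they numbered 460759 to 4022328 in STAT3-CKO SCI, 91626 to 615302 in WT SCI and 2858044 to 10140612 in uninjured libraries. The ribosomal precursor row Rn45s held 52.2% to 89.2% of STAT3-CKO SCI, 89.0% to 96.2% of WT SCI and 12.6% to 26.7% of uninjured HA IP counts. Levels below are CPM, read counts divided by library sizes scaled by TMM and brought to a common total, which are relative within 1 fit, and a gene was called at a Benjamini-Hochberg adjusted p under 0.05 in edgeR's quasi-likelihood test over all genes. Stat3 had 7.85 to 12.3 CPM in STAT3-CKO SCI, against 26.3 to 66.1 CPM in WT SCI and 12.2 to 15.5 CPM in uninjured HA IP libraries. On these deposited counts STAT3-CKO SCI did not overlap WT SCI and its highest library lay within the uninjured range. After subtraction it had 6.5 to 9.05 CPM in STAT3-CKO SCI, 25.9 to 70.8 CPM in WT SCI and 13.1 to 15.4 CPM in uninjured libraries. There STAT3-CKO SCI lay below both other groups. All 6 astrocyte markers were higher in HA IP than in flow-through in uninjured cord and in STAT3-CKO SCI, and 4 of 6 in WT SCI. In bulk RNA, fewer cells of a type and less RNA per cell cannot be told apart.

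**Figure D1:**
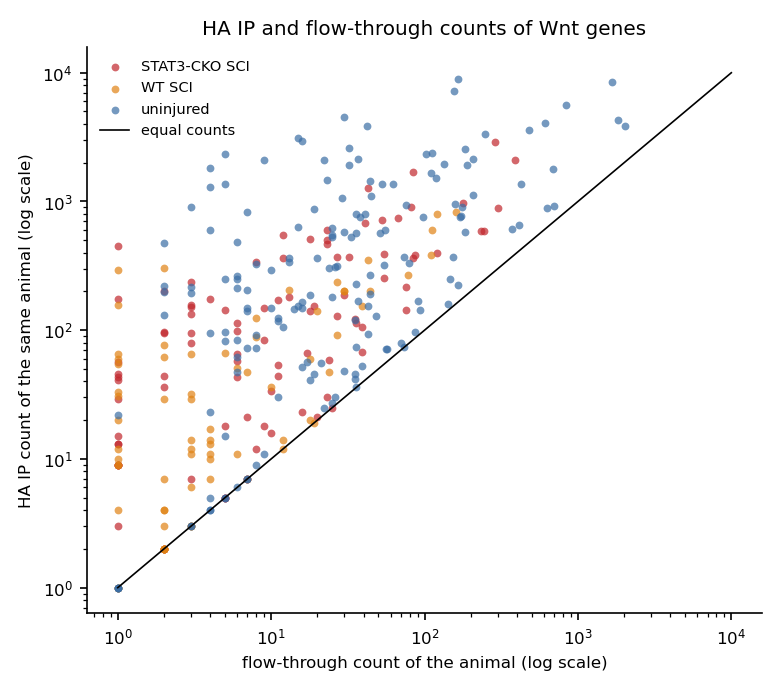
HA IP count against flow-through count of the same animal for each Wnt gene and animal with flow-through reads (332 points, both axes log scale, colours by group). The line marks equal counts, and no point falls below it while 37 lie on it.

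In uninjured cord many Wnt genes differed between the fractions. Most receptors, the ligands Wnt7a and Wnt7b and the antagonist Sfrp5 were higher in HA IP, whereas Rspo1, Rspo2, Rspo4, Sfrp1, Sfrp2, Dkk3 and Lgr5 were lower there than in flow-through. Of 39 members tested, 17 were higher and 9 lower in HA IP than in flow-through, against 26.4% of all genes called higher and 24.2% called lower. With HA IP less flow-through, 19 were higher and 9 lower, against 30.2% and 29% of all genes. The median log2 difference of the members was 0.88, beside 0.02 over all genes tested. Here and in the next paragraphs on uninjured cord, the fit did not pair the fractions of an animal. With the animal as a replicate block more members were called, as counted further below, so a member that did not pass here may pass there. When all 22 libraries were fitted together, Wnt6 was called in addition and the calls of Fzd2, Fzd4, Fzd6, Fzd7, Fzd9, Axin1, Lgr5, Wnt3, Wnt8b, Wnt10a, Rspo2 and Rspo4 were lost (edgeR adjusted p 0.0654 to 0.376, and 0.107 for Lgr5).

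Wnt7a, a ligand, had 46.3, 55.0, 56.5 and 23.5 CPM in HA IP, against 1.11, 1.66, 0.952 and 0.348 CPM in flow-through of uninjured animals 42, 79, 65 and 154. No library of one fraction reached the other, and the log2 difference was 5.57 ± 0.43 (SE; edgeR adjusted p = 2.6e-06). Wnt7b, its close relative, had 48.7, 55.7, 45.9 and 47.5 CPM in HA IP, against 1.04, 4.05, 5.47 and 2.78 CPM in flow-through, a log2 difference of 4.04 ± 0.38. Wnt8b was the third ligand called higher, at 3.11 ± 1.79 CPM in HA IP and 0.39 ± 0.261 CPM in flow-through (SD, n = 4 each). Wnt3 and Wnt10a were called lower in HA IP, with log2 differences of -1.09 and -2.3. Both calls were lost without uninjured animal 79 or 65, and that of Wnt3 also without 154 (adjusted p 0.0766 to 0.194). Wnt4, Wnt5a, Wnt5b, Wnt2b and Wnt9a did not pass the test.

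Among the receptors, 8 of 12 were called higher and 0 lower. Fzd1, a Frizzled receptor, had 141.0, 101.0, 140.0 and 131.0 CPM in HA IP, against 11.4, 7.73, 7.14 and 13.5 CPM in flow-through (log2 difference 3.65 ± 0.23, edgeR adjusted p = 5.74e-07). Lrp5, a Wnt co-receptor, had 14.3, 15.8, 15.1 and 14.6 CPM in HA IP, against 0.208, 0.736, 1.43 and 3.13 CPM in flow-through (log2 difference 3.41 ± 0.55). Fzd10, Fzd6, Fzd2, Fzd4, Fzd7 and Fzd9 were the others, with log2 differences between 1.61 and 3.78. The co-receptor Lrp6, at 0.71, and the receptors Fzd3, Fzd5 and Fzd8, at 0.35, 0.28 and 1.18, did not pass in this unpaired fit. Lrp6 and Fzd8 passed with HA IP less flow-through. Within animals, Lrp6, Fzd3 and Fzd8 had more CPM in HA IP than in flow-through in every uninjured animal. Fzd5 did so in all but animal 154, at 3.47 CPM in HA IP and 3.83 CPM in flow-through. The calls of Fzd4, Fzd2 and Fzd6 were lost without 1 of the uninjured animals 79, 65 and 154, with adjusted p up to 0.0882.

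R-spondins and their receptors went both ways. Lgr6 and Lgr4, R-spondin receptors, were higher in HA IP by log2 differences of 2.42 ± 0.35 and 1.62 ± 0.19. Lgr6 had 26.2, 22.9, 25.8 and 20 CPM in HA IP, against 7.64, 3.5, 1.67 and 3.91 CPM in flow-through. Lgr5 ran the other way, with 9.62, 6.61, 11.5 and 11.9 CPM in HA IP, against 25.9, 27.1, 36.4 and 36.0 CPM in flow-through. The libraries of Lgr4, Lgr5 and Lgr6 did not overlap between the fractions. Rspo1, Rspo2 and Rspo4 were lower in HA IP, with log2 differences of -2.04, -2.29 and -2.35, and with HA IP less flow-through of -3.34, -4.71 and -7.55. For Rspo4 this subtraction left 1 count in the 4 uninjured HA IP libraries together, beside 93 in flow-through, so its last value is set by that single count. The Rspo1 call was lost without uninjured animal 79 or 65 (adjusted p 0.0823 and 0.0878), and that of Rspo4 without 79, 65 or 154 (0.0759 to 0.147). Rspo3, at 0.36, did not pass.

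Among the antagonists, only Sfrp5 was higher in HA IP, at 36.8, 56.3, 42.9 and 35.3 CPM, against 0.347, 6.81, 1.19 and 2.78 CPM in flow-through (log2 difference 4.06 ± 0.6). Sfrp2 had 2.53, 1.87, 1.49 and 1.75 CPM in HA IP, against 9.87, 10.5, 7.14 and 7.57 CPM in flow-through, a log2 difference of -2.19 ± 0.29. After subtraction its HA IP level was 0.392, 0.421, 0.63 and 0.206 CPM and its log2 difference -4.4 ± 0.42. Sfrp1 was lower, at -1.89 ± 0.41, as was Dkk3, a divergent Dickkopf protein, at -1.22 ± 0.21, while Sfrp4 did not pass. Of the intracellular members, the TCF factors Tcf7l1 and Tcf7l2 were higher in HA IP by 2.56 ± 0.38 and 2.25 ± 0.17 and the scaffold Axin1 by 0.88 ± 0.23. Axin2, at -0.52, and Tcf7, at -1.04, did not pass. Astrocyte markers were higher in HA IP in the same comparison (6 of 6, median log2 difference 4.63), and all 5 neuron and all 6 oligodendrocyte markers were lower; the part of cell makeup in the members' differences was not tested.

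**Figure D2:**
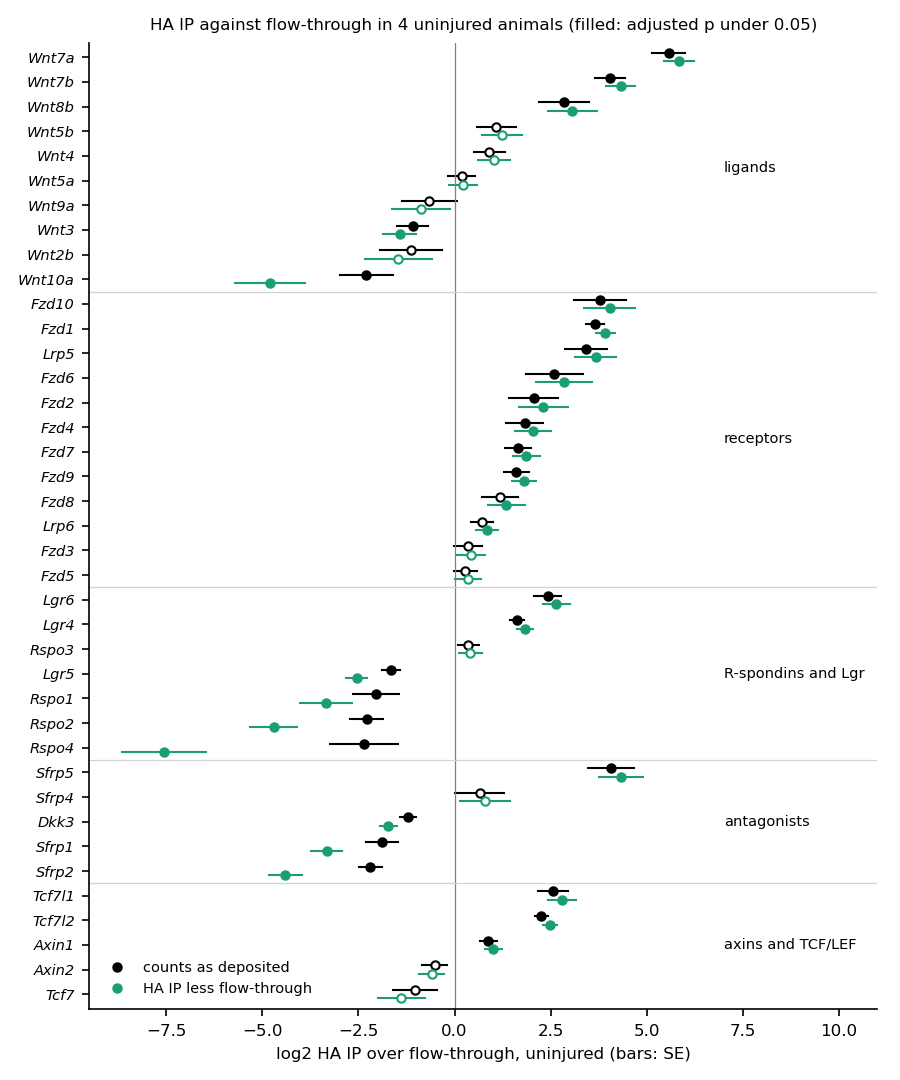
Log2 difference between HA IP and flow-through in 4 uninjured animals for the 39 members tested, grouped by role, with the standard error as bars; black is counts as deposited and green HA IP less flow-through, and filled points have an adjusted p under 0.05. Wnt7a, Wnt7b, Sfrp5 and most receptors lie to the right, and Rspo1, Rspo2, Rspo4, Sfrp1, Sfrp2, Dkk3 and Lgr5 to the left, farther so after the subtraction.

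Levels were compared between genes on the authors' adjusted FPKM, a per-length unit. In uninjured HA IP, Fzd1 stood at 2.2 ± 0.291, Sfrp5 at 1.7 ± 0.417, Dkk3 at 1.27 ± 0.339, Wnt7b at 1.1 ± 0.114 and Wnt7a at 1.08 ± 0.374 adjusted FPKM (SD, n = 4). The spreads of neighbours in this order overlapped. Tcf7l2, Lgr4, Lrp6, Lgr6 and Fzd3 followed at 0.699, 0.657, 0.506, 0.492 and 0.472. After a proportional removal of the flow-through counts, Dkk3 fell to 0.731 ± 0.17, while Fzd1, Sfrp5, Wnt7b and Wnt7a stayed at 2.17, 1.68, 1.09 and 1.07. In uninjured flow-through, Dkk3 was at 4.48 ± 0.825, followed by Sfrp1 at 1.01 ± 0.4, Lgr5 at 0.758 ± 0.144, Axin2 at 0.702 ± 0.387 and Fzd3 at 0.561 ± 0.313. Wnt1, Wnt3a and Wnt10b had 0 counts in all 22 libraries. With these, 15 members were filtered out of both within-fraction fits, and the rest of them had few reads. HA IP totals over 11 libraries were 98 for Rspo4, 55 for Wnt10a, 53 for Dkk2, 44 for Wnt11, 42 for Wnt2, 31 for Lef1 and 12 for Dkk4. Wnt16 had 5, Wnt9b and Dkkl1 had 4 each, Dkk1 had 3 and Wnt8a had 1. Lef1, a TCF/LEF factor, had 7 and 16 HA IP counts in STAT3-CKO SCI animals 531 and 270, 0 in all WT SCI libraries and 5 and 3 in uninjured animals 42 and 154; flow-through of the same animals held 24 counts beside the 31 of HA IP. At this depth no difference in Lef1 was detectable.

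WT SCI was set against uninjured cord to ask what differs in tagged cells after injury. Wnt7a, Fzd1 and Lgr6 fell and Axin2 rose on both ways of counting, whereas calls of Fzd3, Lrp6, Sfrp5 and Fzd4 held only on counts as deposited. Of 38 members tested, 4 were called higher and 4 lower in WT SCI than in uninjured HA IP libraries, against 15.8% and 10.9% of all genes, so the members' share was not far from the background. With HA IP less flow-through, 1 of 37 was higher and 3 were lower, against 11.2% and 9.35% of all genes. The median log2 difference of the members was -0.37, beside 0 over all genes. Libraries of a group are listed in the order of animals 186, 531 and 270 for STAT3-CKO SCI, 9935, 9874, 9843 and 9596 for WT SCI, and 42, 79, 65 and 154 for uninjured.

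Wnt7a was the ligand that changed. It had 2.93, 1.02, 1.57 and 2.06 CPM in WT SCI, against 8.74, 10.9, 11.1 and 4.49 CPM in uninjured HA IP libraries. Every WT SCI library lay below every uninjured one, and the log2 difference was -2.27 ± 0.5 (edgeR adjusted p = 0.00252). With HA IP less flow-through it was -2.24 ± 0.53 (edgeR adjusted p = 0.0069), a call lost without ribosomal rows and after thinning to equal depth (-1.68, adjusted p = 0.0541). The counts behind the WT SCI values were 9, 9, 9 and 30. Wnt7b gave no call. It had 20.2, 23.2, 8.2 and 13.9 CPM in WT SCI and 9.17, 11, 9.03 and 9.08 CPM in uninjured libraries (log2 difference 0.77 ± 0.42, edgeR adjusted p = 0.175). The other 8 ligands tested did not pass. Wnt6 and Wnt9a were at 0 counts in all 4 WT SCI libraries and at means of 0.082 and 0.158 CPM in uninjured ones, where 3 counts over the WT SCI libraries would give 0.0931 CPM.

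Among the receptors, Fzd1 fell to 13.4, 7.35, 6.1 and 2.13 CPM in WT SCI, against 26.5, 20, 27.6 and 25.1 CPM in uninjured HA IP libraries. The groups did not overlap, and the log2 difference was -1.84 ± 0.5 (edgeR adjusted p = 0.0104) and -1.85 ± 0.5 with HA IP less flow-through (adjusted p = 0.0156, and 0.0502 without uninjured animal 42). Fzd4, the receptor that also binds the ligand Norrin, had 0, 0.226, 0.697 and 0.411 CPM in WT SCI and 2.77, 1.07, 1.62 and 1.93 CPM in uninjured libraries. Its log2 difference was -2.35 ± 0.82 (edgeR adjusted p = 0.0404), from 0 to 6 counts per WT SCI library, and -2.25 ± 0.89 with an adjusted p of 0.0777 after subtraction. Fzd3, a receptor of the planar polarity branch, had 30, 22.6, 24.8 and 54.5 CPM in WT SCI and 25, 11.2, 11.7 and 14.1 CPM in uninjured libraries, which overlapped (log2 difference 1.09 ± 0.36, edgeR adjusted p = 0.0303). Lrp6 had 19.6, 26.6, 27.0 and 24.3 CPM in WT SCI, against 16.7, 10.2, 9.39 and 12.6 CPM in uninjured libraries, with no overlap (log2 difference 1.0 ± 0.28, edgeR adjusted p = 0.0142). After subtraction the adjusted p was 0.0676 for Fzd3 and 0.0682 for Lrp6, and after thinning to equal depth 0.0562 and 0.0607. The Lrp6 groups overlapped after subtraction, with WT SCI animal 9935 at 15.3 CPM and uninjured animal 42 at 18.6 CPM. On counts as deposited, the Fzd3 call was lost without uninjured animal 79, 65 or 154 or WT SCI animal 9596 (adjusted p 0.0864 to 0.128), that of Lrp6 without uninjured animal 79 or 65 (0.0614 and 0.0617), and that of Fzd4 without uninjured animal 42, 65 or 154 or WT SCI animal 9935, 9874 or 9596 (0.0646 to 0.105). Lrp5 had 6.52, 7.58, 6.28 and 1.17 CPM in WT SCI and 2.69, 3.13, 2.98 and 2.78 CPM in uninjured libraries and did not pass, nor did the 7 other receptors, among them Fzd7 at 2.61, 1.13, 1.92 and 0.411 CPM in WT SCI and 2.24, 1.71, 2.25 and 2.09 CPM in uninjured libraries.

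Lgr6 had 0 counts in all 4 WT SCI HA IP libraries, against 4.94, 4.54, 5.08 and 3.82 CPM in uninjured ones, where it had 4466 counts in all. Set against 3 counts over the WT SCI group, 0.0931 CPM, it was at least 49.4-fold lower (edgeR adjusted p = 0.000146), and at least 46.6-fold lower with HA IP less flow-through (adjusted p = 0.000582). Lgr4 had 0.652, 17.8, 7.32 and 2.19 CPM in WT SCI and 9.89, 7.1, 8.31 and 8.99 CPM in uninjured libraries, so WT SCI values lay on both sides of the uninjured ones. Lgr5 had 0, 0, 3.49 and 0.48 CPM in WT SCI and 1.81, 1.31, 2.27 and 2.28 CPM in uninjured libraries, and neither passed. Of the antagonists, Sfrp5 had 17.9, 34.3, 10.8 and 9.26 CPM in WT SCI and 6.95, 11.2, 8.44 and 6.76 CPM in uninjured libraries (log2 difference 1.12 ± 0.41, edgeR adjusted p = 0.0481, and 0.0627 after subtraction). The groups overlapped, and without WT SCI animal 9874 the difference was 0.58 with an adjusted p of 0.249; the call was also lost without any 1 of the 4 uninjured animals, WT SCI animal 9935 or STAT3-CKO SCI animal 531 or 270 (0.0561 to 0.128). Dkk3 had 16.6, 14.0, 8.2 and 13.9 CPM in WT SCI and 11.4, 9.32, 8.3 and 14.9 CPM in uninjured libraries, with no call. After subtraction Wnt7b, Dkk3, Lgr4, Lrp5, Fzd7 and Lgr5 did not pass either (edgeR adjusted p 0.21 to 0.981).

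Axin2 showed the largest called rise in HA IP, but not on every scale. It had 87.7, 93.3, 66.4 and 41.5 CPM in WT SCI, against 3.33, 3.93, 3.53 and 3.16 CPM in uninjured HA IP libraries (log2 difference 4.37 ± 0.48, edgeR adjusted p = 3.06e-06, and 4.33 ± 0.49 after subtraction). The counts themselves were 269, 825, 381 and 605 in WT SCI and 1126, 754, 577 and 905 in uninjured libraries, although reads outside the ribosomal rows were far fewer in WT SCI. In CPM of all counts, ribosomal reads included, Axin2 had 7.37 to 17.9 in WT SCI and 15.5 to 19.0 in uninjured HA IP libraries, so on this scale it was not higher in WT SCI. On the same scale the median gene with at least 100 uninjured counts had a WT SCI level of 0.0426 times the uninjured one, Axin2 0.783 times and Rn45s 4.68 times. Only 1.04% of 13992 such genes had a ratio as high as that of Axin2. WT SCI libraries also held the larger share of ribosomal reads, so injury and that share cannot be told apart here. The part of that share in the Axin2 result was not tested. Tcf7 had 0, 0.226, 0 and 0 CPM in WT SCI and 0.0888, 0.214, 0.141 and 0.195 CPM in uninjured libraries, from at most 2 counts per WT SCI library, and no difference was detectable.

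**Figure D3:**
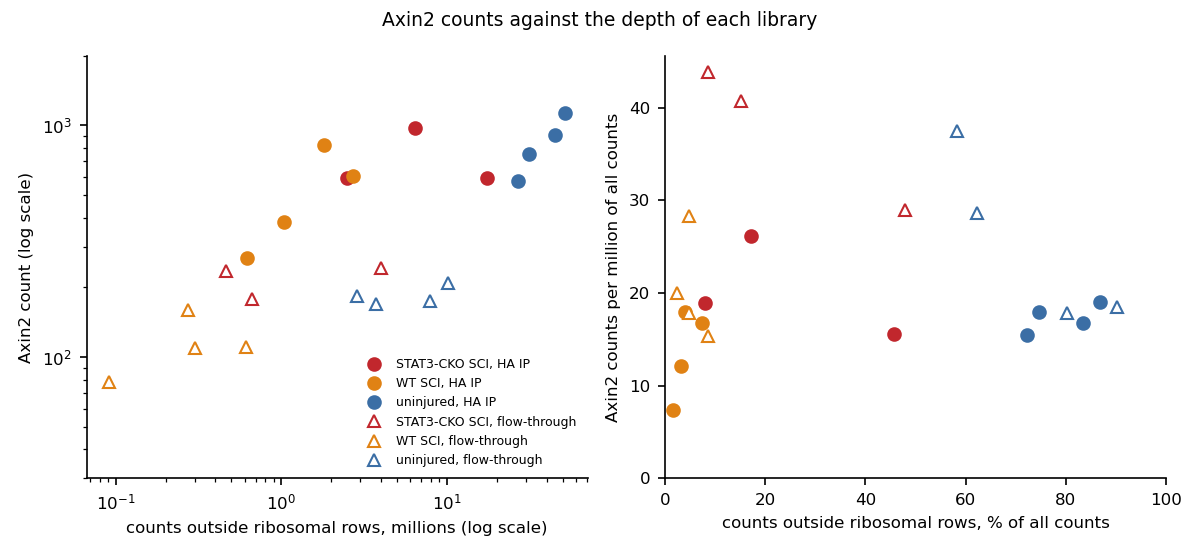
Left, Axin2 count against reads outside 3 ribosomal rows (log axes); right, Axin2 CPM of all counts against the share of reads outside those rows. Circles are HA IP and triangles flow-through libraries, coloured by group. HA IP counts of Axin2 lie between 269 and 1126 over the whole range of depth, and on the right the HA IP libraries reach 17.9 in WT SCI and 19.0 in uninjured animals.

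The promoters of the 4 members whose HA IP change was called on both ways of counting are shown because they carry that result. They are taken from RefSeq on GRCm38.p6, 250 bases before to 50 after the start site, 5′ to 3′ on the gene's strand, with the TCF/LEF core TCAAAG, searched on both strands, in capitals.
Wnt7a (chr6:91411304-91411603, - strand): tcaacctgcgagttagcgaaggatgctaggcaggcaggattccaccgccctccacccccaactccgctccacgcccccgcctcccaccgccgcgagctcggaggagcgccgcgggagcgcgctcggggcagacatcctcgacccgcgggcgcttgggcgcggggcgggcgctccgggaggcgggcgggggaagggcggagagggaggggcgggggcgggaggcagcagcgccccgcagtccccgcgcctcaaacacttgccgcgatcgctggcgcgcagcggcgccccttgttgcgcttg
Fzd1 (chr5:4758167-4758466, - strand): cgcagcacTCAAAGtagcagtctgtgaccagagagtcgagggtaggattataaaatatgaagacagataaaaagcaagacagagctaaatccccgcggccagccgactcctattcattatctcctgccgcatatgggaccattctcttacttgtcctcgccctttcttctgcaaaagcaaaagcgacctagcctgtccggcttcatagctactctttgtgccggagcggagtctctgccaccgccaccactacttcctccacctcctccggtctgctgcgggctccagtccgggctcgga
Lgr6 (chr1:135105227-135105526, - strand): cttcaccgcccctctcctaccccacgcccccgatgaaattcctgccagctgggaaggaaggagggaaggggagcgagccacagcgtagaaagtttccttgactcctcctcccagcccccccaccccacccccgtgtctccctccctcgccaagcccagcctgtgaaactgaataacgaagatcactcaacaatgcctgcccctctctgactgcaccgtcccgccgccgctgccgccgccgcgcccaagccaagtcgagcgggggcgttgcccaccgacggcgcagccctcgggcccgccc
Axin2 (chr11:108920099-108920398, + strand): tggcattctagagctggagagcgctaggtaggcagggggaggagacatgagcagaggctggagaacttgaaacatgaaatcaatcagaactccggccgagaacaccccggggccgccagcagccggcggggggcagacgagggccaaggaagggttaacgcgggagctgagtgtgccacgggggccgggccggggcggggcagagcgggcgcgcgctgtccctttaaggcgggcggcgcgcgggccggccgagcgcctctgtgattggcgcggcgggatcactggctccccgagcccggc
The core occurs in the Fzd1 promoter, starting 242 bases before the start site, and these letters are not in the other 3 windows. Over 43 promoters of the 35 members with an entry, 11.6% held it, beside 16% of 32851 promoters. The STAT-type motif TTCNNNGAA occurred in 2.33% of the members' promoters, beside 8.3% of all. GC content was 76% for Wnt7a, 54% for Fzd1, 67.7% for Lgr6 and 70% for Axin2. Wnt7a spans chr6:91363981-91411363, Fzd1 chr5:4753839-4758035, Lgr6 chr1:134983301-135105276, each on the - strand, and Axin2 chr11:108920349-108950783 on the + strand, by the GENCODE annotation of GRCm38, whose start sites can differ from those of RefSeq.

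**Figure D4:**
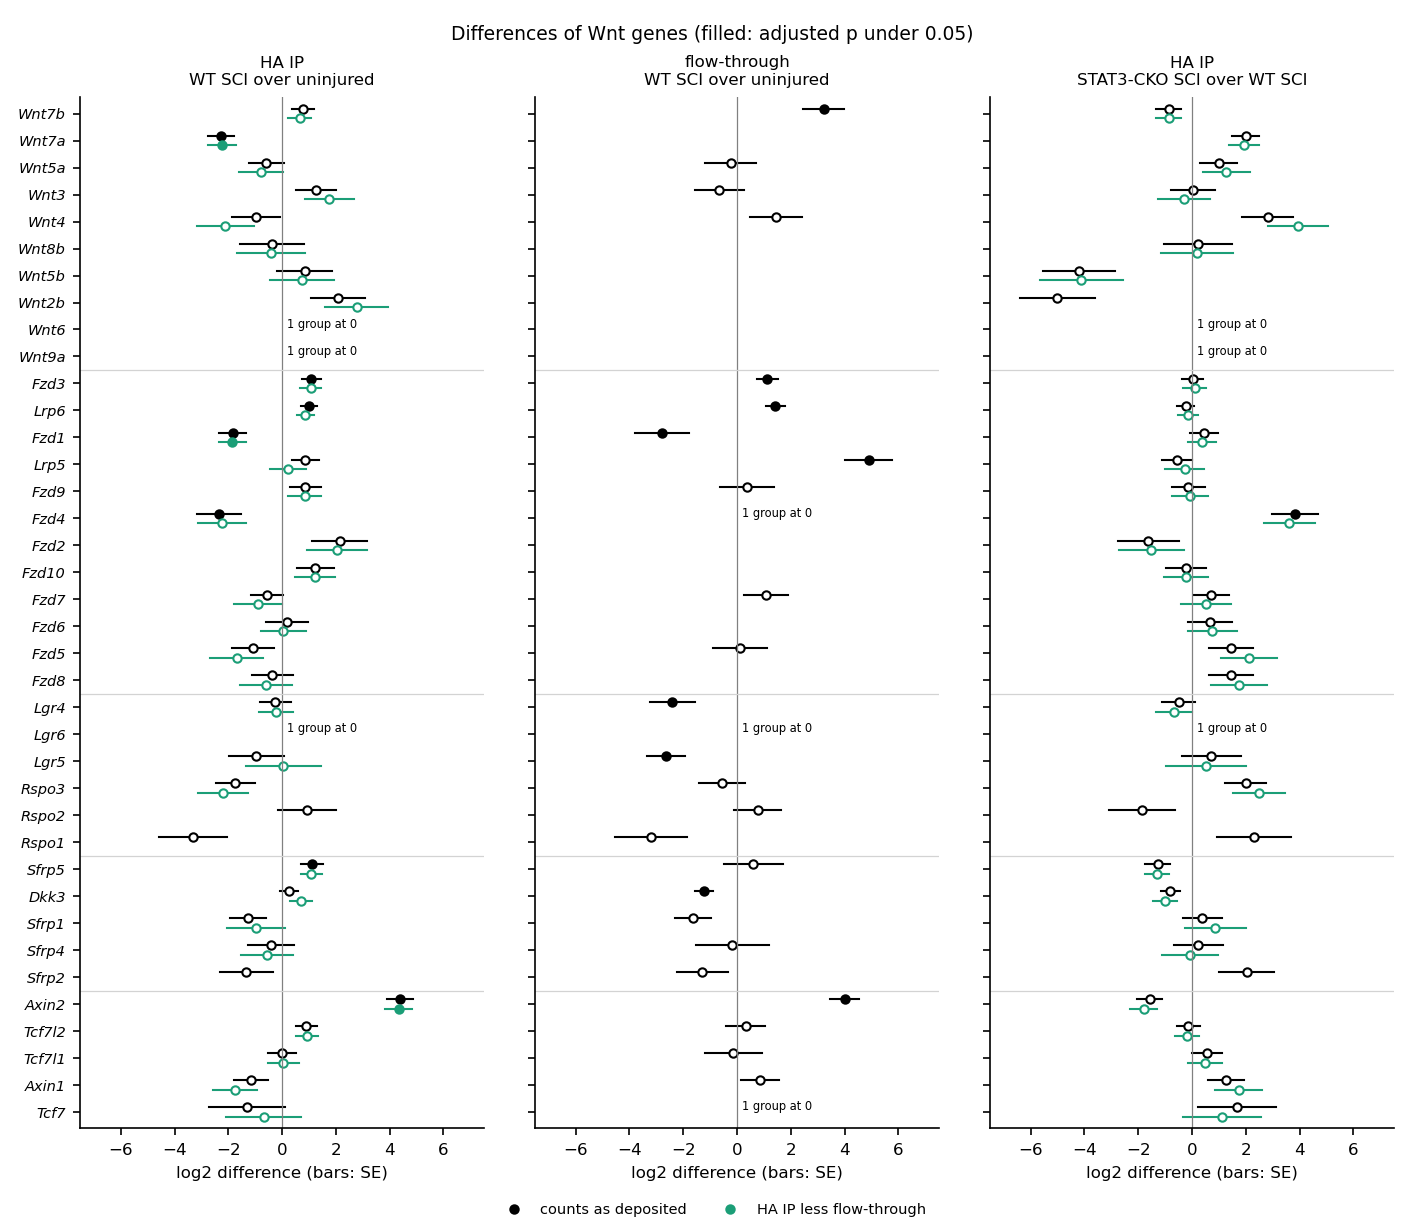
Log2 differences of the members with their standard errors in 3 comparisons, grouped from top to bottom as ligands, receptors, R-spondins and Lgr receptors, antagonists, and intracellular members; filled points have an adjusted p under 0.05. Black is counts as deposited and green HA IP less flow-through, and members with a group at 0 counts are marked without a value. Wnt7a, Fzd1 and Axin2 are filled in both colours in the left panel, and only Fzd4 in black among the plotted values of the right panel.

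Marker genes of cell types other than astrocytes differed as well. In HA IP, 7 of 8 microglia and macrophage markers and all 6 oligodendrocyte markers were higher in WT SCI, and 3 of 5 neuron markers lower. Summed levels were 491 to 1940 CPM in WT SCI and 8.46 to 21.3 CPM in uninjured libraries for microglia and macrophages (6 of 8 higher, 71.9 to 548 and 4.24 to 17.6 CPM, after subtraction), 5290 to 8140 and 1200 to 1600 CPM for oligodendrocytes, and 45.9 to 117 and 315 to 588 CPM for neurons. Astrocyte markers summed to 2520 to 4190 CPM in WT SCI and 1920 to 3540 CPM in uninjured libraries, with 1 of 6 higher and 3 lower. None of these markers was at 0 in either group. The part of these cells in the Wnt gene differences was not tested.

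Flow-through RNA gave 10 calls among 28 members in the same comparison, 5 higher and 5 lower in WT SCI, against 16.7% and 14.3% of all genes. After thinning to equal depth only 3 members were called. Apart from Dkk3, the lost calls were of members with too few reads to be tested at that depth. Axin2, Fzd3, Lrp6, Lrp5 and Wnt7b were higher, and Fzd1, Dkk3, Lgr4, Lgr5 and Lgr6 lower. Dkk3 had 11.8, 6.19, 17.7 and 15 CPM in WT SCI, against 32.3, 29.9, 23.8 and 36.6 CPM in uninjured flow-through, with no overlap (log2 difference -1.24 ± 0.34, edgeR adjusted p = 0.00608), a call lost after thinning to equal depth (-0.9, adjusted p = 0.0975). Lgr5 had 0, 0, 0.738 and 2.39 CPM in WT SCI, against 5.92, 6.37, 8.58 and 8.3 CPM in uninjured libraries (log2 difference -2.64 ± 0.71, edgeR adjusted p = 0.00617). Both genes lay wholly below the uninjured range in WT SCI. Lgr4 had 0, 0.774, 0 and 1.02 CPM in WT SCI, against 3.96, 2.69, 2.97 and 3.67 CPM in uninjured libraries (log2 difference -2.41 ± 0.83). Fzd1 had 0, 0.774, 0 and 0.341 CPM in WT SCI, against 2.61, 1.82, 1.68 and 3.11 CPM in uninjured libraries (log2 difference -2.8 ± 1.0). Lgr6 had 0 counts in all WT SCI libraries, against 1.75, 0.823, 0.392 and 0.902 CPM in uninjured ones, at least 1.96-fold lower. These last 3 rest on 0 to 3 counts per WT SCI library, and Lgr5 on 0, 0, 1 and 7 counts. The Lgr4 call was lost without uninjured animal 154 or WT SCI animal 9843 (adjusted p 0.0601 and 0.072), that of Fzd1 without uninjured animal 79 or 154 or WT SCI animal 9843 or 9596 (0.0515 to 0.0865), and that of Lgr6 without any 1 WT SCI animal (0.0522 to 0.12), without a filter on low counts (0.0575) and by DESeq2 (0.111).

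Of the flow-through rises, Lrp6 had 35.5, 20.9, 28.8 and 14.7 CPM in WT SCI, against 13.4, 5.76, 6.61 and 9.68 CPM in uninjured libraries, with no overlap (log2 difference 1.43 ± 0.37, edgeR adjusted p = 0.00445). Fzd3 had 53.2, 23.2, 14.8 and 41.2 CPM in WT SCI and 26.6, 8.97, 10.6 and 12.2 CPM in uninjured libraries, which overlapped (log2 difference 1.13 ± 0.4, edgeR adjusted p = 0.0324); its call was lost without uninjured animal 79, 65 or 154 or WT SCI animal 9935 or 9596 (0.0798 to 0.111), by DESeq2 (0.0586) and with only the 2 groups (0.0633). Lrp5 had 35.5, 3.87, 7.38 and 1.36 CPM in WT SCI, against 0.0477, 0.173, 0.336 and 0.722 CPM in uninjured libraries (log2 difference 4.9 ± 0.87, edgeR adjusted p = 9.63e-05). The groups did not overlap, but Lrp5 rested on 18, 5, 10 and 4 counts in WT SCI and 3, 4, 6 and 36 in uninjured libraries. Wnt7b had 0, 10.1, 5.16 and 10.2 CPM in WT SCI and 0.239, 0.953, 1.29 and 0.642 CPM in uninjured libraries (log2 difference 3.22 ± 0.77, edgeR adjusted p = 0.00233), with animal 9935 at 0 and the other 3 above the uninjured range. Axin2 had 154, 124, 81.2 and 37.8 CPM in WT SCI, against 3.31, 7.37, 10.3 and 3.51 CPM in uninjured libraries (log2 difference 4.0 ± 0.53). In CPM of all counts Axin2 had 15.4 to 28.3 in WT SCI and 17.8 to 37.5 in uninjured flow-through. Tcf7 was at 0 in all WT SCI flow-through libraries and at 0.175, 0.78, 0.224 and 0.421 CPM in uninjured ones, whose mean of 0.4 CPM is below the 0.493 CPM that 3 counts over the WT SCI group would give. Sfrp5, Fzd4 and Fzd7 did not pass: Sfrp5 had 1.97, 1.55, 1.48 and 0 CPM in WT SCI and 0.0795, 1.6, 0.28 and 0.642 CPM in uninjured libraries, Fzd4 was at 0 in all WT SCI libraries and at 0.303 to 1.21 CPM in uninjured ones, and Fzd7 had 0 to 4.43 CPM in WT SCI and 0.347 to 1.12 CPM in uninjured libraries. In flow-through, all 5 neuron markers were lower in WT SCI (summed to 202 to 470 CPM, against 2250 to 2890 CPM in uninjured libraries) and 5 of 5 fibroblast and pericyte markers higher (29.6 to 83.4 CPM, against 3.53 to 6.02 CPM). There, 7 of 8 microglia and macrophage markers (2320 to 7460 CPM in WT SCI, against 28.1 to 58.3 CPM in uninjured libraries) and 5 of 6 astrocyte markers (595 to 819 CPM, against 90.6 to 151 CPM) were higher as well. Their part in the Wnt gene differences was not tested.

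The effect of injury was called different between the fractions for Dkk3 and Lrp5. The members' share was not above that of all genes by a clear margin, so it is not a result about the family, and neither call held on every setting. In 1 fit of all 22 libraries, 1 of 42 members had a higher and 1 a lower log2 injury effect in HA IP than in flow-through, against 2.67% and 2.03% of all genes, and with HA IP less flow-through again 1 and 1 of 41, against 6.05% and 4.22%. Dkk3 fell in flow-through and not in HA IP, a difference of 1.7 ± 0.45 (edgeR adjusted p = 0.024), and 2.25 ± 0.52 after subtraction (adjusted p = 0.00468). The Dkk3 call was lost with RLE scaling (1.5, adjusted p = 0.0508) and, after subtraction, without ribosomal rows and thinned to equal depth (0.84, adjusted p = 0.484). Lrp5 rose in flow-through and did not pass in HA IP, a difference of -3.86 ± 1.02 (edgeR adjusted p = 0.0228), and -4.49 ± 1.13 after subtraction. Without WT SCI animal 9935 the Lrp5 difference was -2.64 with an adjusted p of 0.127, and without WT SCI animal 9874 that of Dkk3 was 1.43 with an adjusted p of 0.0672. On counts as deposited, the Dkk3 call was also lost without any 1 uninjured animal (0.0544 to 0.0903), and that of Lrp5 without uninjured animal 42, 79 or 65 (0.0713 to 0.0841). The median of this difference over all genes was 0.26, so values are read against it. Samples of an animal pair the fractions by design, and with the animal as a replicate block 3 of 42 members were called, against 12.8% of all genes, Wnt7b in addition at -2.56 ± 0.64 (edgeR adjusted p = 0.0124). For the effect of genotype, 0 members differed between the fractions by edgeR and 0 by DESeq2. All-gene shares called by edgeR were 0.0066% higher and 0.0198% lower, and 0.0604% and 0.047% after subtraction. By edgeR and DESeq2, 3 and 4 members were at an unadjusted p under 0.05, a threshold at which no all-gene share is given.

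STAT3-CKO SCI was set against WT SCI to ask what differs when Stat3 is targeted in tagged cells, and gave few calls among the Wnt genes. In HA IP, 2 of 38 members, Fzd4 and Lgr6, were called higher and 0 lower in STAT3-CKO SCI than in WT SCI, against 0.596% and 0.562% of all genes. With HA IP less flow-through, 0 of 37 were called by edgeR, against 0.667% and 0.569% of all genes called higher and lower. At an unadjusted p under 0.05 there were 12, but the share of all genes at that threshold is not given, so the 12 are not read against a background. The median log2 difference was 0.42 over the members and 0.03 over all genes. DESeq2 on the deposited counts called 7 of 50 members, against 4.78% of all genes, and a fit of only these 2 groups called 0 of 28, against 0.3%. Marker genes differed too: 1 of 6 astrocyte markers, Gfap, was lower (the list summed to 1900 to 1990 CPM in STAT3-CKO SCI, against 2520 to 4190 CPM in WT SCI). Mbp, 1 of 6 oligodendrocyte markers, was lower (that list summed to 3130 to 3640 CPM in STAT3-CKO SCI, against 5290 to 8140 CPM in WT SCI). The part of these cells in the Wnt gene differences was not tested.

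Fzd4 had 2.03, 12.1 and 1.33 CPM in STAT3-CKO SCI, against 0, 0.226, 0.697 and 0.411 CPM in WT SCI (log2 difference 3.82 ± 0.86, edgeR adjusted p = 0.0336). The groups did not overlap, but animal 531 stood apart, and without it the difference was 2.21 with an adjusted p of 0.267. Without any 1 uninjured animal or WT SCI animal 9874 the adjusted p was 0.0569 to 0.0615. Lgr6 had 0.0701, 1.53 and 0.83 CPM in STAT3-CKO SCI, from 1, 57 and 96 counts, and 0 counts in the 4 WT SCI libraries, at least 8.69-fold higher (edgeR adjusted p = 0.0457). Its call was lost without STAT3-CKO SCI animal 531 or 270 (edgeR adjusted p = 0.132 and 0.119), any 1 uninjured animal, or WT SCI animal 9874, 9843 or 9596 (0.0584 to 0.0816), and after thinning to equal depth (0.108). Animals 531 and 270 gave the deepest HA IP libraries of the injured groups. Wnt7a had 12.3, 5.28 and 4.3 CPM in STAT3-CKO SCI, against 2.93, 1.02, 1.57 and 2.06 CPM in WT SCI. The groups did not overlap, yet the call was missed (log2 difference 1.99 ± 0.52, edgeR adjusted p = 0.0662, and 0.0884 after subtraction). Wnt7a in STAT3-CKO SCI and uninjured libraries overlapped, with a log2 difference of -0.28 ± 0.48. Axin2 had 41.5, 26.2 and 5.12 CPM in STAT3-CKO SCI, lowest in animal 270, the library with the smallest Rn45s share of the injured animals. Its log2 difference from WT SCI was -1.58 ± 0.47 (edgeR adjusted p = 0.107), and in CPM of all counts it had 15.6 to 26.1 in STAT3-CKO SCI and 7.37 to 17.9 in WT SCI.

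Other members gave no genotype call in HA IP. Fzd1 had 2.52, 14.6 and 10.9 CPM in STAT3-CKO SCI, within which animal 186 sat beside the lowest WT SCI library. Lrp6 had 26.1, 18.2 and 18.1 CPM, Fzd3 51.8, 24.2 and 24.9 CPM, Lrp5 2.38, 4.83 and 3.46 CPM and Fzd7 1.47, 2.25 and 3.16 CPM in STAT3-CKO SCI, each overlapping WT SCI. Sfrp5 had 10.9, 6.3 and 5.19 CPM in STAT3-CKO SCI, with a log2 difference of -1.28 ± 0.45 from WT SCI (edgeR adjusted p = 0.165), and Dkk3 7.99, 6.81 and 7.71 CPM, with -0.81 ± 0.36 (0.267). After subtraction Sfrp5 had -1.29 ± 0.45 (0.15) and Dkk3 -1.01 ± 0.45 (0.252). The STAT3-CKO SCI values of Dkk3 lay below all 4 WT SCI values on counts as deposited, but after subtraction, at 6.5, 5.65 and 6.55 CPM in STAT3-CKO SCI and 16.4, 14.4, 5.37 and 14.1 CPM in WT SCI, they overlapped, as those of Sfrp5 did on counts as deposited. Wnt7b had 10.1, 13.8 and 2.94 CPM, Lgr4 3.78, 5.01 and 6.25 CPM, Lgr5 3.01, 0.0536 and 1.88 CPM and Tcf7 0, 0.0268 and 0.51 CPM in STAT3-CKO SCI. Tcf7 rested on animal 270, with 59 counts, beside 0 and 1 in the others.

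In flow-through, 0 of 28 members were called between STAT3-CKO SCI and WT SCI by edgeR and 0 by DESeq2. Of all genes, 0.0867% were called higher and 0.0315% lower by edgeR. By each tool 3 members were at an unadjusted p under 0.05, a threshold at which no all-gene share is given. Lgr4 had 4.6, 8.77 and 2.36 CPM in STAT3-CKO SCI, above all 4 WT SCI libraries at 0, 0.774, 0 and 1.02 CPM. Fzd1 had 0.837, 3.51 and 1.92 CPM in STAT3-CKO SCI, also above the 4 WT SCI libraries, and an adjusted p of 0.278. Dkk3 had 15.1, 15.8 and 13.5 CPM and Lgr5 2.51, 0.585 and 3.39 CPM in STAT3-CKO SCI, and both overlapped WT SCI. Lrp6 had 13.4, 12 and 17.3 CPM, Fzd3 28.0, 23.7 and 12.8 CPM and Lrp5 4.19, 3.8 and 5.35 CPM in STAT3-CKO SCI. Wnt7b had 2.09, 5.26 and 0.357 CPM, Sfrp5 1.26, 0.877 and 1.03 CPM, Fzd4 0.419, 0.292 and 0.848 CPM, Lgr6 0, 0.292 and 0.0892 CPM and Tcf7 0, 0 and 1.07 CPM.

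Set against uninjured animals, STAT3-CKO SCI gave 1 HA IP call among 38 members, Axin2 higher (log2 difference 2.79 ± 0.46, edgeR adjusted p = 0.00041, and 2.53 ± 0.47 after subtraction), and 0 lower. In CPM of all counts Axin2 had 15.6 to 26.1 in STAT3-CKO SCI and 15.5 to 19.0 in uninjured HA IP libraries, which overlapped. The all-gene shares were 7.7% higher and 2.08% lower, and 4.62% and 1.29% after subtraction. This comparison shares its uninjured libraries with that of WT SCI, so their values are set side by side only. Fzd1 had -1.4 ± 0.52 here (edgeR adjusted p = 0.103) and -1.84 ± 0.5 in WT SCI, and Lgr6 -2.45 ± 0.76 here (adjusted p = 0.052) and the lower bound given above in WT SCI. In flow-through, 3 of 28 members were higher and 1 lower in STAT3-CKO SCI than in uninjured libraries, against 10.4% and 3.53% of all genes. Axin2 had 98.4, 52.3 and 10.8 CPM in STAT3-CKO SCI (log2 difference 3.12 ± 0.52), and in CPM of all counts 28.9 to 43.8, against 17.8 to 37.5 in uninjured flow-through. Lrp5 was higher by 3.78 ± 0.83 and Dkk3 lower, at -1.06 ± 0.34 (edgeR adjusted p = 0.0351), a call lost without any 1 STAT3-CKO SCI animal or uninjured animal 79 or 154 (0.0767 to 0.138), and after thinning to equal depth (-0.47, adjusted p = 0.504). Fzd7, a Frizzled receptor, had 8.37, 2.63 and 3.75 CPM in STAT3-CKO SCI, against 0.604, 0.347, 1.12 and 1.1 CPM in uninjured flow-through (log2 difference 2.58 ± 0.7, edgeR adjusted p = 0.0115), with no overlap. Without STAT3-CKO SCI animal 186 its difference was 2.01 with an adjusted p of 0.105, and without uninjured animal 79 it was 2.35 (0.0554).

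**Figure D5:**
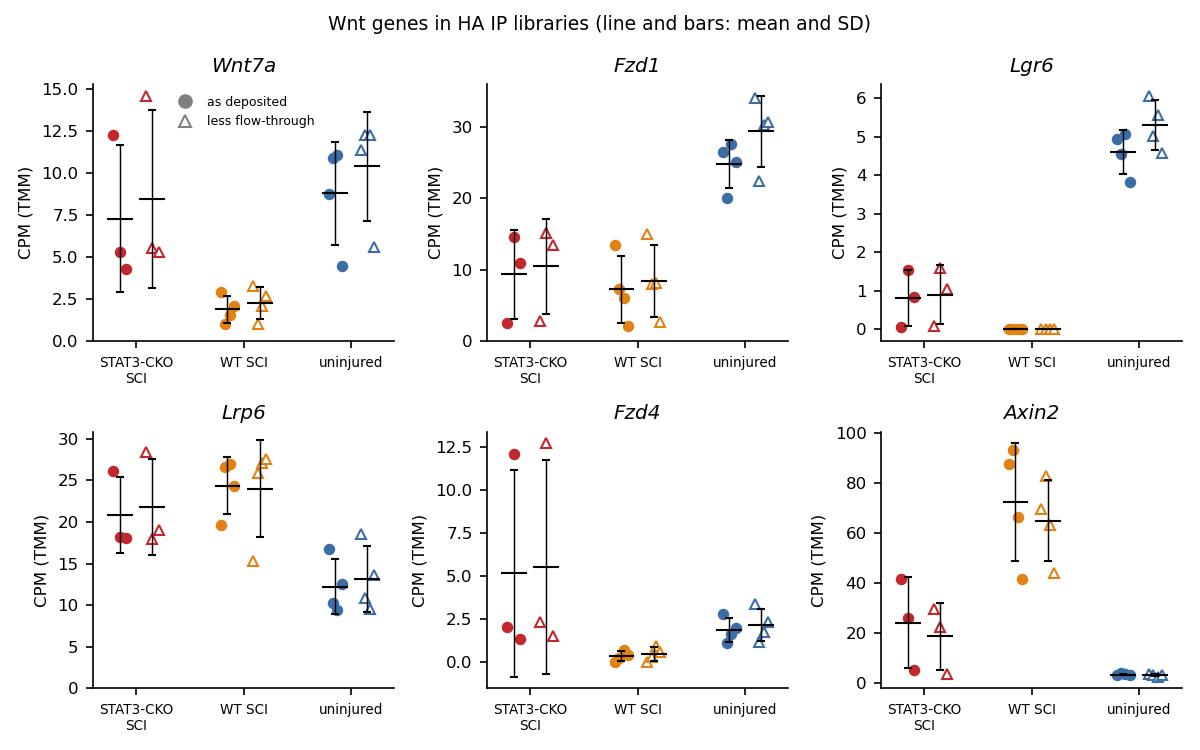
CPM of Wnt7a, Fzd1, Lgr6, Lrp6, Fzd4 and Axin2 in every HA IP library by group, on counts as deposited (circles) and HA IP less flow-through (triangles), with the group mean and SD. Lgr6 is at 0 in all WT SCI libraries, Fzd1 is lower in every injured library than in uninjured ones, and 1 STAT3-CKO SCI library at 12.1 CPM carries the Fzd4 mean.

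After injury, Sfrp5 and Fzd1 were still called higher in HA IP in both injured groups, but these calls did not hold on every setting. In WT SCI only 9 members had enough reads, of which 2 were called higher and 0 lower in HA IP, against 4.09% and 2.16% of all genes, and 3 with HA IP less flow-through, against 6.07% and 6.12%. Sfrp5 had 4.04, 7.77, 2.34 and 1.94 CPM in HA IP, against 0.401, 0.297, 0.283 and 0 CPM in flow-through (log2 difference 4.4 ± 0.87), and Fzd1 a difference of 4.57 ± 1.08. The Sfrp5 call was lost without WT SCI animal 9874 (edgeR adjusted p = 0.0622), and that of Fzd1 without 9935, 9874 or 9843 (0.0591 to 0.0874). After thinning to equal depth, 0 members were called in WT SCI on either way of counting. In STAT3-CKO SCI, 8 of 31 members were higher and 0 lower in HA IP, against 7.12% and 4.7% of all genes, and 10 of 29 after subtraction, against 8.82% and 8.23%. They were Fzd1, Fzd2, Fzd4, Fzd9, Wnt7a, Sfrp5, Tcf7l1 and Tcf7l2, with log2 differences between 1.71 and 4.34, and the calls of all but Wnt7a and Sfrp5 were lost without 1 or more of these 3 animals (adjusted p 0.0609 to 0.582). Wnt7a had 14.0, 6.03 and 5.03 CPM in HA IP, against 0.396, 0 and 0.984 CPM in flow-through of STAT3-CKO SCI. With the animal as a replicate block, 14 of 31 members were called in STAT3-CKO SCI, 13 higher and 1 lower, against 24.5% of all genes, 3 of 9 in WT SCI, against 12.9%, and 31 of 39 in uninjured cord, against 63.5%.

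Other genes of the pathway, 63 in the files, were counted in the same way. In HA IP, 12 of 58 tested were higher and 5 lower in WT SCI than in uninjured libraries, and 9 and 5 of 57 after subtraction, against 15.8% and 10.9% of all genes, and 11.2% and 9.35% after subtraction. Ccnd1, a cyclin and Wnt target, had 32.6, 79.3, 37.3 and 43.9 CPM in WT SCI, against 10.2, 15.3, 10.7 and 10.0 CPM in uninjured libraries (log2 difference 2.07 ± 0.32, edgeR adjusted p = 0.000111). Csnk1d, a casein kinase, was higher by 1.71 ± 0.31. Ctnnb1, which encodes beta-catenin, had 37.5, 49.1, 33.1 and 63.7 CPM in WT SCI, against 84.9, 99.3, 115.0 and 97.1 CPM in uninjured libraries (log2 difference -1.11 ± 0.25, edgeR adjusted p = 0.00332), and the kinase gene Gsk3a was lower, at -1.39 ± 0.33. Neither Ccnd1 nor Ctnnb1 overlapped between the groups. Of 10 target genes tested in HA IP, 4 were higher and 1 lower, against the same 15.8% and 10.9% of all genes. In STAT3-CKO SCI against WT SCI, 1 of 58 was called in HA IP, the Frizzled ubiquitin ligase Znrf3, at 16.6, 13.1 and 9.03 CPM in STAT3-CKO SCI, against 5.21, 3.73, 2.96 and 3.84 CPM in WT SCI (log2 difference 1.73 ± 0.39, edgeR adjusted p = 0.0328, and 0.0281 after subtraction), and 0 of 51 in flow-through, against 0.596% higher and 0.562% lower among all genes in HA IP, and 0.0867% and 0.0315% in flow-through. Against uninjured libraries, STAT3-CKO SCI had 8 of 58 higher in HA IP, led by Jun at 1.61 ± 0.39 and Tnks at 1.47 ± 0.38, and 1 lower, Ndp, the Norrin gene, at -2.43 ± 0.73. After subtraction 2 were higher, Tnks and Prickle1, and 0 lower, so the calls of Jun and Ndp were lost. All-gene shares there were 7.7% and 2.08%, and 4.62% and 1.29% after subtraction. In flow-through, 9 of 51 were higher and 7 lower in WT SCI than in uninjured libraries, led by Cd44 at 3.33 ± 0.54 and Kremen1 at 3.5 ± 0.73 upward and by Gsk3a at -1.66 ± 0.31 and Dvl3 at -1.51 ± 0.46 downward, and 4 were higher and 1 lower in STAT3-CKO SCI, led by Cd44 at 2.82 ± 0.52 and Jun at 2.0 ± 0.41. All-gene shares in flow-through were 16.7% higher and 14.3% lower in WT SCI, and 10.4% and 3.53% in STAT3-CKO SCI, and shares of pathway genes near these are not a result about the pathway.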

How the data were processed

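RNA of HA IP and flow-through from 11 mice gave 22 libraries. Per the labels' protocols, cDNA was made from 5 ng of RNA and libraries with 10 PCR cycles. The authors deposited raw counts per gene and library, per the file headers, and adjusted FPKM values, which the headers call adjusted by the authors without saying how. Per the submitters' processing notes, CASAVA 1.8.2, mm10 and edgeR were used; the labels and headers name no aligner, counting tool, annotation or strand setting (not given in the sources used here), so overlapping and antisense genes cannot be told apart. The tables hold 102 further per-sample columns, which no step read. All 529320 counts held in more than 1 of the 5 tables were equal.

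Counts were tested with edgeR 4.0.16 in R 4.3.3 (quasi-likelihood test, filterByExpr with its minimum count of 10, TMM, two-sided, Benjamini-Hochberg adjustment over all genes tested, call at an adjusted p under 0.05). The 3 groups of a fraction shared 1 fit, HA IP against flow-through was fitted within each condition, and differences of effects were fitted over all 22 libraries. Titles give both fractions of an animal the same number, which pairs them by design; the animal as a replicate block was an alternative. HA IP less flow-through counts, with 16 values below 0 set to 0, were added after seeing the data. Other alternatives were RLE scaling, no filter, DESeq2 1.42.0, thinning to equal depth, leaving out ribosomal rows, only the groups compared, and leaving out each animal. The procedure was tested on simulated data. Replicates were checked for duplicate deposits: chi-square over its degrees of freedom was at least 5.65 for every pair within a group, and each library was kept.

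The gene families, gene lists and markers were chosen with earlier results of these data known; within the families every gene symbol that matches is a member. Values per library are given for members called in at least 1 within-fraction comparison (14 members) and for Axin2, Lef1 and Tcf7; pathway genes are named for up to 2 called per direction. Folds against a group at 0 counts are bounds set at 3 counts over the group. Bounds cover counting error only. Gene spans come from the GENCODE annotation of GRCm38 and promoters from the RefSeq table. One marker result is not reported here.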

Additional observations from a re-analysis of the deposited data

Results flagged for a closer look

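The log2 injury effect, WT SCI against uninjured, was called different between HA IP and flow-through for 2 members by the interaction term of the fit over all libraries. Of all genes, 2.67% were called higher and 2.03% lower in HA IP, so the members' share was not far from the background. For Dkk3 it was higher in HA IP by 1.7 ± 0.45 (SE; edgeR adjusted p = 0.024), and by 0.84 (adjusted p = 0.484) less flow-through, without ribosomal rows and thinned to equal depth. For Lrp5 the difference was -3.86 ± 1.02 (edgeR adjusted p = 0.0228), with 18, 5, 10 and 4 flow-through counts in WT SCI and 3, 4, 6 and 36 in uninjured animals. With the animal as a replicate block they were 1.69 and -3.83. A check of 38 groups of 4 libraries for a library far from the others flagged 0.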

How the results depend on the processing

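Depth limits these results, above all in WT SCI, where members below the filter had few or no reads. Results differ with the counting of HA IP, the filter and the groups in the fit, and the cause was not tested. Counts of called members follow, the value as reported in parentheses. All-gene shares are not set beside these counts or those without each animal below, so they are not read as a result about the members. In HA IP, WT SCI against uninjured (8) gave 5 after thinning to equal depth and 4 with HA IP less flow-through. In HA IP, STAT3-CKO SCI against WT SCI (2) gave 7 with DESeq2 and 0 after thinning, with HA IP less flow-through and with only the 2 groups. In HA IP, STAT3-CKO SCI against uninjured (1) gave 2 with RLE scaling, 3 without a filter, 4 with DESeq2, 2 without ribosomal rows and 11 with only the 2 groups. In flow-through, WT SCI against uninjured (10) gave 3 after thinning, and STAT3-CKO SCI against uninjured (4) gave 7 without a filter, 1 after thinning and 8 with only the 2 groups. Thinning took the Dkk3 call in both, and the other calls lost to it were of members that fell under the filter. HA IP against flow-through gave 15 in uninjured animals (26) when all 22 libraries were fitted. In WT SCI (2) it gave 4 without a filter, 4 with DESeq2, 0 after thinning and 7 with all libraries, and 0 less flow-through after thinning (3). In STAT3-CKO SCI (8) it gave 3 after thinning and 14 with the replicate block, and 4 less flow-through after thinning (10). The injury effect's difference between fractions (2) gave 1 with RLE scaling, 1 after thinning and 3 with the replicate block, and less flow-through 0 after thinning.

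Without each animal in turn, HA IP calls ranged 4 to 9 for WT SCI against uninjured (4 to 7 less flow-through), 0 to 3 for STAT3-CKO SCI against WT SCI (0 to 2) and 1 to 3 for STAT3-CKO SCI against uninjured (1 to 1). Flow-through calls ranged 6 to 10, 0 to 0 and 2 to 5 for these comparisons in that order. HA IP against flow-through ranged 2 to 8 within STAT3-CKO SCI, 1 to 2 within WT SCI and 21 to 29 within uninjured animals. The difference of the injury effect ranged 0 to 2 and that of the genotype effect 0 to 0. Tcf7, called nowhere, changed sign without STAT3-CKO SCI animal 270: its HA IP difference from WT SCI ranged from -1.75 to 7.64 over the animals left out (-1.89 less flow-through without 270), that from uninjured from -3.07 to 0.87 (-2.56 to 0.89 less flow-through) and in flow-through from -5.75 to 0.82, with -0.07 by DESeq2. Of the values of single members under alternatives, 1010 kept direction and side of the threshold, 139 kept direction but lost the call, 1 gained it (Axin2 in HA IP, STAT3-CKO SCI against WT SCI, DESeq2) and 6, all of Tcf7, changed sign. This tally leaves out each alternative in which a member fell under the filter or had no adjusted p, as often happened after thinning. Calls that could not be tested there are thus not counted as lost. DESeq2 moved the median of all genes in HA IP, WT SCI against uninjured, to 0.23.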
